A study of Mus musculus with 2 samples.

Results

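The let-7 microRNAs that are made from a single gene each, and Mir98, a let-7 gene under another name, are the subject here. They are Mirlet7b, Mirlet7d, Mirlet7e, Mirlet7g, Mirlet7i and Mir98, picked out by gene symbol in the GENCODE M21 annotation, by a rule with no threshold on their values, and they are 6 of the 2202 microRNA genes in the deposited count tables. Reads of small RNA were counted per microRNA gene in the left cerebral cortex of 2 female mice aged 36 days. Mouse 1 and mouse 2, named after the biological replicate numbers in the labels, were both B6CASTF1/J, the first-generation hybrid of C57BL/6J and CAST/EiJ. The labels give no treatment and no transgene. The labels number the animals separately but list a single donor code, and each mouse gave 1 library. The design has 1 group and therefore no comparison between conditions, and every difference below lies between 2 animals with 1 library each.

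MicroRNAs are cut from a hairpin in a longer transcript, first by Drosha in the nucleus and then by Dicer in the cytoplasm, and either arm of the hairpin can yield a mature strand. The mature strand guides Argonaute to messenger RNAs that pair with its seed, the bases 2 to 8. The let-7 family was found in Caenorhabditis elegans as a timer of development. In vertebrates let-7 rises as cells differentiate and represses growth genes such as Hmga2, and LIN28, a protein of stem cells and early embryos, blocks the maturing of many let-7 hairpins in part through a GGAG motif beside the loop. In the mouse brain let-7b and let-7d are known to hold back neural stem cell proliferation through the nuclear receptor Nr2e1, also called TLX. Mouse let-7e is known for its part in the response of macrophages to endotoxin.

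The mature sequences are shown because they say what the 6 genes share and what lets a read be given to a single gene of them. All 6 matched RefSeq entries of the build GRCm38.p6, the assembly also called mm10, and the RefSeq hairpins were identical to those of GENCODE M21. The first 6 lines are the 5p strands of these genes and the last 3 are the 5p strands of the let-7 microRNAs that have several gene copies. Capitals mark the seed.
let-7g-5p: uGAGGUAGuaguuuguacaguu
let-7i-5p: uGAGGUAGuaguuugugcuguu
let-7b-5p: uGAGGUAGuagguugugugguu
let-7e-5p: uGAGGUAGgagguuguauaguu
let-7d-5p: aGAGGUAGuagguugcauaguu
miR-98-5p: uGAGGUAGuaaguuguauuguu
let-7a-5p: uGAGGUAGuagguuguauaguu
let-7c-5p: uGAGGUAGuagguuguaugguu
let-7f-5p: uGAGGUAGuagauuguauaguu

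All 6 strands have the seed GAGGUAG and so fall into a single seed group, which let-7a, let-7c and let-7f share. They are 22 bases long, and 14 of the 22 positions hold the same base in all 6. The variable positions, counted from 1 at the 5′ end, are 1, 9, 11, 12, 16, 17, 18 and 19, none of them in the seed. Set against let-7a, let-7e differs by a single change, U9G. The pair of changes is A17G and A19G in let-7b, U1A and U16C in let-7d, G12U and U18C in let-7g, and G11A and A19U in miR-98. In let-7i the 4 changes are G12U, A17G, U18C and A19U. Among the 6 strands the fewest differences were the 2 between let-7g and let-7i (A17G and A19U, let-7g to let-7i), and the most were the 6 between let-7d and let-7i.

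**Figure D1:**
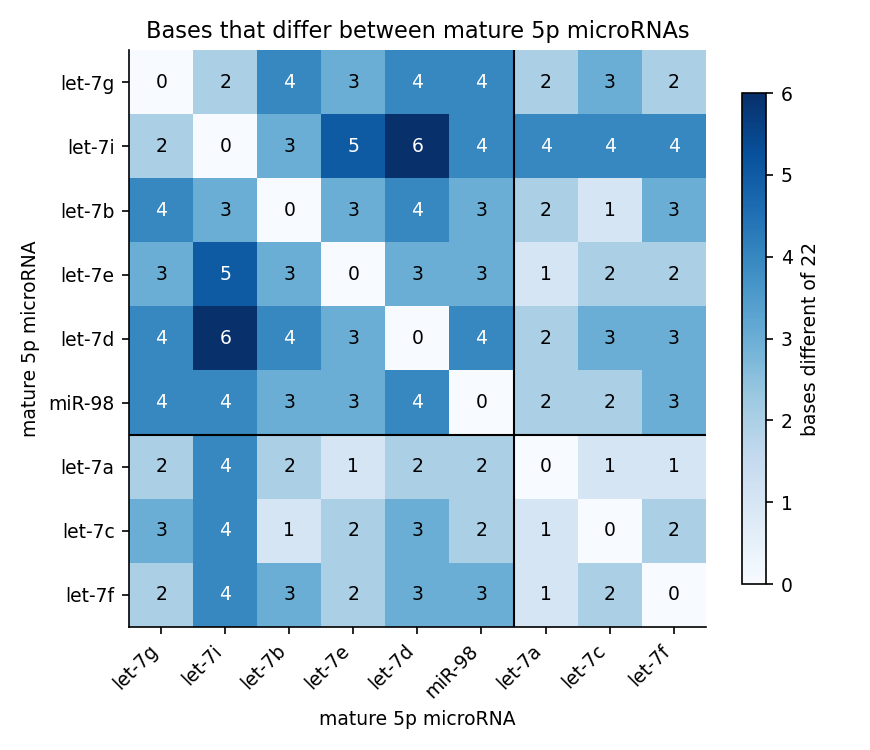
Number of bases that differ between mature 5p microRNAs (rows and columns, colour scale in bases of 22). The 6 single-copy microRNAs stand above and left of the black lines and differ from each other by 2 to 6 bases, while let-7b and let-7e each lie 1 base from a multi-copy relative.

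The label single-copy was checked on sequence among the annotated hairpins only. The rest of the genome was not searched. Each of the 6 mature 5p strands was found, as an exact run on the transcript strand, in 1 of the 2202 annotated hairpins, whereas let-7a, let-7c and let-7f were each found in 2. A read from the 5′ end becomes unique among these hairpins at 9 bases for let-7d, at 11 bases for miR-98 and at 17 bases for let-7b, let-7e, let-7g and let-7i. The first 16 bases of let-7b are also those of let-7a and let-7c (5 hairpins), the first 16 of let-7g and let-7i are the same, and the first 16 of let-7e also stand in Mir7k, the gene of let-7k. With up to 1 mismatch let-7b also matched Mirlet7c-1 and Mirlet7c-2, let-7e also matched Mirlet7a-1 and Mirlet7a-2, and let-7i also matched Mir7j, the gene of let-7j. The other 3 (let-7d, let-7g and miR-98) matched their own hairpin alone. The mismatches the aligner allowed are not given in the sources used here, so the part of reads from relatives in these counts was not tested.

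The 3p strands, shown because the counts are per gene and may hold reads of either arm, differ more. Capitals again mark bases 2 to 8.
let-7g-3p: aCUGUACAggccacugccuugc
let-7i-3p: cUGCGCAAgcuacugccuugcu
let-7b-3p: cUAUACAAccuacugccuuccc
let-7e-3p: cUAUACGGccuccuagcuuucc
let-7d-3p: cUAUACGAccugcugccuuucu
miR-98-3p: cUAUACAAcuuacuacuuuccu
Each 3p strand was found in 1 annotated hairpin. Their seeds fall into 5 groups, of which let-7b and miR-98 share UAUACAA, while let-7d (UAUACGA), let-7e (UAUACGG), let-7g (CUGUACA) and let-7i (UGCGCAA) each have a seed of their own. The files do not separate the arms.

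The hairpins are given because the annotated gene, and so the count, is the whole hairpin. Capitals mark the 5p and 3p mature strands, and the lower-case run between them holds the loop.
Mirlet7g hairpin: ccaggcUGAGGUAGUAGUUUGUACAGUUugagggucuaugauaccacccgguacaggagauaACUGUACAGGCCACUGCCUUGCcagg
Mirlet7i hairpin: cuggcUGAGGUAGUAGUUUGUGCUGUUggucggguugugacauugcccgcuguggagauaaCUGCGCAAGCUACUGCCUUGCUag
Mirlet7b hairpin: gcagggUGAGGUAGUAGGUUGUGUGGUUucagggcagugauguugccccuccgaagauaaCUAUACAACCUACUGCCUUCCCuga
Mirlet7e hairpin: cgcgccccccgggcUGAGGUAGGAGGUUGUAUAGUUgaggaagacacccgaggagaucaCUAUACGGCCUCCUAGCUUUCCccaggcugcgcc
Mirlet7d hairpin: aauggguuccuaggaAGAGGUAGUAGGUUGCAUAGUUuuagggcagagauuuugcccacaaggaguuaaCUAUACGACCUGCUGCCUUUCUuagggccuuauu
Mir98 hairpin: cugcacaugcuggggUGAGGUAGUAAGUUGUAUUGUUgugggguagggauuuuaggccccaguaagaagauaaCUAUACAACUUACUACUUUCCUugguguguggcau
The hairpins are 85 bases (Mirlet7b, Mirlet7i), 88 (Mirlet7g), 93 (Mirlet7e), 103 (Mirlet7d) and 108 bases (Mir98) long, against a median of 89 over all annotated hairpins. The motif GGAG was searched on the transcript strand and, as CUCC, on the opposite strand. Between the arms GGAG was found in 4 of the 6, Mirlet7d, Mirlet7e, Mirlet7g and Mirlet7i, ending 3 bases before the 3p strand in Mirlet7g and 4 bases before it in the other three, and it was in no part of the Mirlet7b and Mir98 hairpins. Mirlet7e also holds GGAG within its 5p strand, from base 22 of the hairpin. In all, 820 of the 2202 hairpins (37.2%) hold GGAG somewhere, against 4 of the 6. The share with GGAG between the arms was not computed over all hairpins. CUCC is held by 893 hairpins (40.6%), among them Mirlet7b and Mirlet7e. A match is a description of the letters, and these data do not measure LIN28.

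The 6 genes lie on 6 chromosomes, 4 of them beside other microRNA genes, and all 6 within a longer gene on the same strand. On mm10, Mirlet7g (ENSMUSG00000065440.1, chr9:106178840-106178927, plus strand) lies in an intron of all 5 transcripts of Wdr82, a subunit of histone methyltransferase complexes, that span it. Mirlet7i (ENSMUSG00000065406.3, chr10:122985640-122985724, minus strand) lies in the transcribed pseudogene D630033A02Rik, in an exon of 1 of its 2 transcripts and an intron of the other. Mirlet7b (ENSMUSG00000065564.1, chr15:85707319-85707403, plus strand) overlaps the exon sequence of the non-coding Lncppara transcript. Mirlet7d (ENSMUSG00000065453.1, chr13:48536012-48536114, minus strand) overlaps an exon of the long non-coding gene 6720427I07Rik. Mirlet7e (ENSMUSG00000105758.1, chr17:17830352-17830444, plus strand) lies in an intron of both spanning transcripts of Spaca6, a gene needed for the fusion of sperm and egg. Mir98 (ENSMUSG00000065536.2, chrX:151913214-151913321, plus strand) lies in an intron of both spanning transcripts of Huwe1, a ubiquitin ligase gene. No hairpin overlaps an annotated coding sequence or UTR.

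Mouse 1 gave 1930234 sense counts over the 2202 genes and mouse 2 gave 1863876, each CPM below being a count scaled to that total. Reads that fit several places entered no count, and they were 50.9% of the mapped reads in mouse 1 and 51.2% in mouse 2. Intervals are exact 95% Clopper-Pearson bounds, and they cover counting error only, since no molecular identifiers are named and PCR copies count as reads. As a check of the tissue, 8 of 12 neuron marker genes reached 10 CPM in both mice, among them Mir128-1 at 16282.5 and 17178 CPM. Mir124a-1, Mir124a-2, Mir124a-3 and Mir9-2, whose families have several copies, did not. Of all 2202 genes, 324 averaged 10 CPM or more over the mice, which is a looser limit. The liver marker Mir122 stood at 45.6 and 40.2 CPM, and the muscle gene Mir206 at 38.3 and 25.2 CPM. Of the other 5 muscle genes 4 had no count, but most of these belong to families with several copies, whose reads at several places were not counted.

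Together the 6 genes held 27.1% of sense counts in mouse 1 (interval 27.1% to 27.2%) and 23.2% in mouse 2 (23.2% to 23.3%), or 25.2% ± 2.77 (SD, n = 2). Because the tissue was sequenced in bulk, a cell type that is rarer and a cell type with less of the RNA per cell cannot be told apart. Of the 2202 genes by count, 5 of the 6 stood among the 10 highest in each mouse, and Mir98 was the exception, at place 58 in mouse 1 and 44 in mouse 2. They made up 97.7% of the counts of all genes whose symbol or seed is that of let-7, in each mouse. The remaining counts of that kind lay mostly in the 6 multi-copy genes, which by mean level ran from Mirlet7f-2 at 2627 and 3298.5 CPM down to Mirlet7f-1 at 179 and 269.9 CPM. Exact 5p reads of those 6 fit 2 hairpins each, so these values and the 97.7% leave out any reads that mapped to several places. The places by count and the shares of sense counts rest on the same counts, in which families with several copies can stand too low.

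Mirlet7g, which lies in an intron of Wdr82, had 125866 counts in mouse 1 and 145806 in mouse 2. This is 65208 and 78227 CPM (71717.5 ± 9206, SD, n = 2). Mirlet7b had 173310 and 91425 counts, or 89787 CPM in mouse 1, against 49051 CPM in mouse 2 (69419 ± 28805). Of the 6, Mirlet7b was thus the highest in mouse 1 and Mirlet7g the highest in mouse 2.

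Mirlet7i had 87188 and 85503 counts, or 45169.7 CPM in mouse 1, against 45874 CPM in mouse 2 (45522 ± 498). Its SD was 1.09% of its mean, the smallest of the 6. Mirlet7d had 73609 and 56683 counts, or 38135 and 30411 CPM (34273 ± 5461). Mirlet7e had 59351 and 44824 counts, or 30748 and 24049 CPM (27398 ± 4737). Both were higher in mouse 1 by similar amounts, and their SDs were 15.9% and 17.3% of the mean.

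Mir98 was far below the others, with 4640 counts in mouse 1 and 8608 in mouse 2, or 2404 and 4618 CPM (3511 ± 1566). Its SD of 44.6% of the mean was the largest of the 6, next to 41.5% for Mirlet7b, and the pair moved in opposite directions between the mice. Counting error was small beside these gaps. The interval for Mirlet7b in mouse 1 ran from 89384 to 90191 CPM and that for Mir98 in mouse 1 from 2335 to 2474 CPM.

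**Figure D2:**
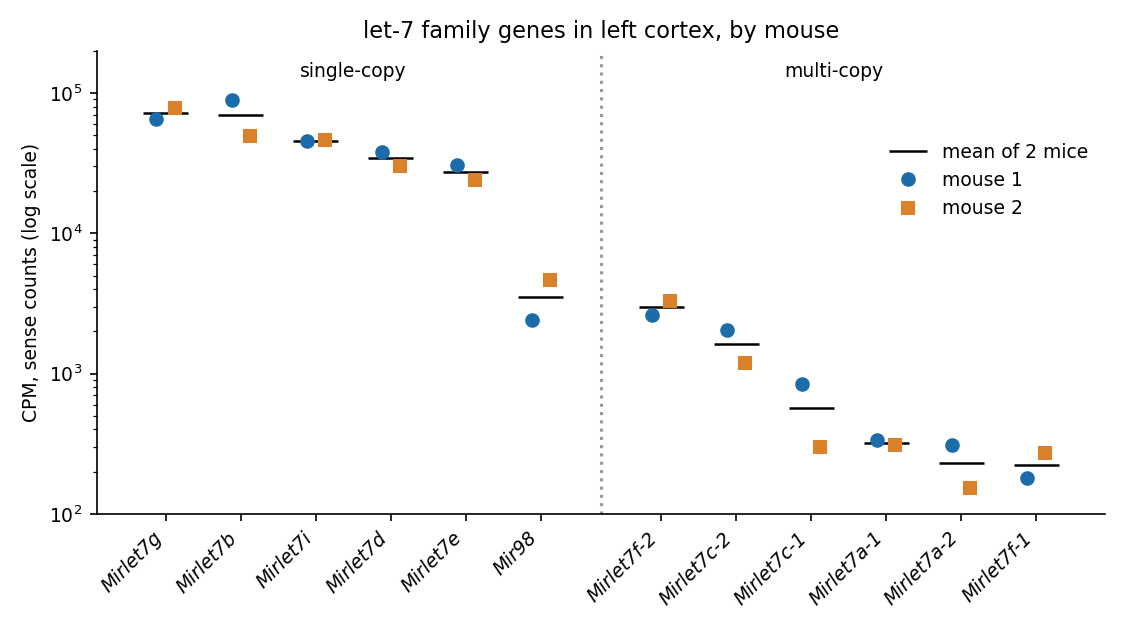
Level in CPM of sense counts (log scale) of the 6 single-copy genes, left of the dotted line, and of the 6 multi-copy let-7 genes, in mouse 1 (circles) and mouse 2 (squares), with the mean as a bar. The points of Mirlet7g and Mirlet7b cross between the mice, those of Mirlet7i nearly coincide, and Mir98 stands between 2404 and 4618 CPM, near Mirlet7f-2.

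Scaled to hairpin length, which is a convention here since a read of a mature microRNA covers an arm and not the hairpin, the order from the highest mean was Mirlet7b (81669 ± 33888 CPM per 100 bases), Mirlet7g (81497 ± 10462), Mirlet7i (53555 ± 586), Mirlet7d (33275 ± 5302), Mirlet7e (29461 ± 5094) and Mir98 (3251 ± 1449.9). By CPM per gene Mirlet7g came before Mirlet7b, and the rest of the order was the same. The ranges over the 2 mice overlapped for Mirlet7b and Mirlet7g, whose order turned round between the mice. They also overlapped for Mirlet7d and Mirlet7e, although within each mouse Mirlet7d was above Mirlet7e. By counts Mirlet7d was 1.24-fold above Mirlet7e in mouse 1 and 1.26-fold in mouse 2, and per 100 bases 1.12-fold and 1.14-fold. The steps from Mirlet7g to Mirlet7i (1.39-fold and 1.65-fold), from Mirlet7i to Mirlet7d (1.44-fold and 1.83-fold) and from Mirlet7e to Mir98 (14.9-fold and 6.05-fold) were larger than the spread between the mice.

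Within the 6, shares do not depend on how the libraries are scaled. Mirlet7b was 33.1% of the summed counts in mouse 1 and 21.1% in mouse 2, and Mirlet7g was 24.0% and 33.7%. Mirlet7i was 16.6% and 19.8%, Mirlet7d 14.0% and 13.1%, and Mirlet7e 11.3% and 10.4%. Mir98 was 0.886% of the sum in mouse 1 and 1.99% in mouse 2. No interval of these shares was wider than 0.282 percentage points. The counts of Mirlet7g were 0.726 times those of Mirlet7b in mouse 1 and 1.59 times in mouse 2. This was the 1 pair of the 15 possible whose order by CPM turned round between the mice.

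**Figure D3:**
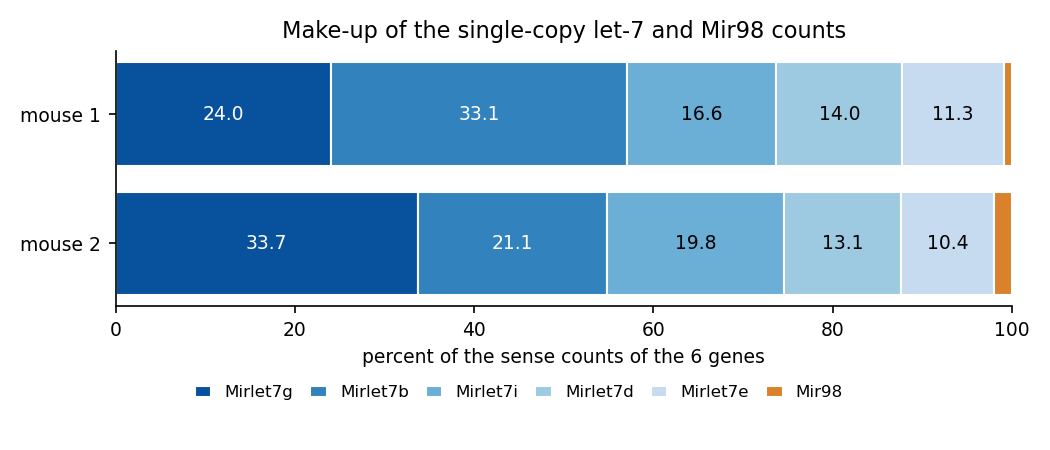
Percent of the summed sense counts of the 6 genes held by each gene in mouse 1 (top) and mouse 2 (bottom). Mirlet7b takes 33.1% in mouse 1 and 21.1% in mouse 2, Mirlet7g 24.0% and 33.7%, and the thin end segment is Mir98 at 0.886% and 1.99%.

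The difference between the mice was also set beside that of all microRNA genes, as the log2 ratio of mouse 1 over mouse 2. The ratios use TMM library sizes, which are meant to adjust for overall differences in composition. With 1 library a mouse these ratios have no replicate check and no p-value is given. Past 2-fold were 18.2% of the 324 genes that averaged 10 CPM or more (59 genes, with 5.56% of the 324 higher in mouse 1 and 12.7% higher in mouse 2), and 0 of the 6. The median absolute log2 ratio was 0.45 over the 6 and 0.54 over the 324, and the median signed ratio was 0.26 over the 6 and 0.064 over the 324. The common biological coefficient of variation from edgeR was 0.397. It describes how far the 2 libraries differ over the tested genes once counting error is taken out. With 1 library a mouse, differences between animals and between library preparations cannot be told apart in it.

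Mirlet7b lay just inside 2-fold, 1.97-fold higher in mouse 1 (log2 ratio 0.98, interval 0.97 to 0.99), and 61 of the 324 genes lay further apart than it did. After correction for hairpin GC content by a line fitted over the tested genes, its log2 ratio was 1.01, past 2-fold. Mir98 was 1.78-fold higher in mouse 2 (log2 ratio −0.83, interval −0.89 to −0.78), with 92 genes further apart. With TMM library sizes and no GC correction, the remaining 4 lay closer than the median gene. Mirlet7e was 1.38-fold (log2 ratio 0.46) and Mirlet7d 1.35-fold (0.44) higher in mouse 1, and Mirlet7g was 1.11-fold higher in mouse 2 (−0.15). After the GC correction the log2 ratio was 0.62 for Mirlet7d, 0.25 for Mirlet7e, −0.14 for Mirlet7g and −0.64 for Mir98. Mirlet7i had a log2 ratio of 0.086 with TMM library sizes and of −0.022 with total counts, so its direction turned with the scaling, which moves the median of all tested genes (0.064 with TMM, −0.044 with total counts) by more than its own ratio.

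**Figure D4:**
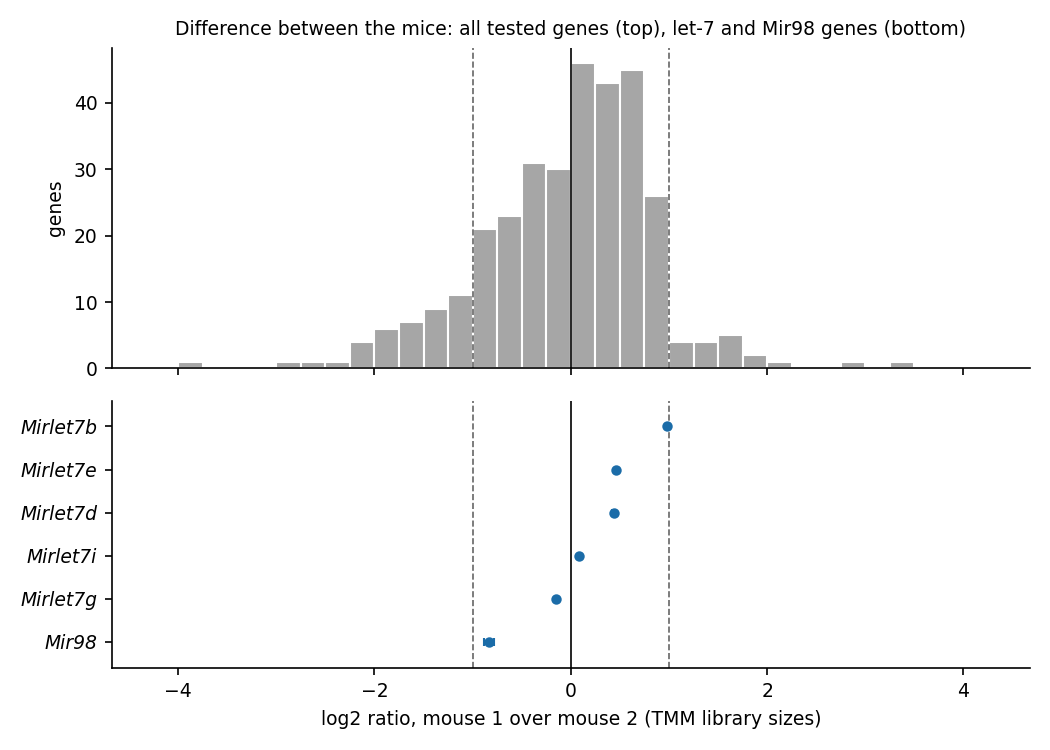
Top, number of genes by log2 ratio of mouse 1 over mouse 2 for the 324 tested genes. Bottom, the same ratio for the 6 genes with 95% counting intervals, mostly narrower than the point; dashed lines mark 2-fold, and all 6 lie between them, from Mir98 at −0.83 to Mirlet7b at 0.98.

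Marker genes of other cell types also differed between the mice, in both directions. The 3 erythroid genes summed to 742 CPM in mouse 1, against 153 CPM in mouse 2, the same direction as Mirlet7b, and all 3 reached 10 CPM in both mice. Most of this sum was Mir451a (649 and 103 CPM). Mir144 stood at 63.2 and 24.7 CPM, and Mir486 at 30.6 and 25.2 CPM, with an interval of its log2 ratio that held 0 (−0.19 to 0.97). The endothelial gene Mir126a stood at 11276 CPM in mouse 1, against 22379.7 CPM in mouse 2, and the 2 oligodendrocyte genes summed to 2746 and 5119 CPM, the same direction as Mir98. The 12 neuron genes summed to 188854 and 185289 CPM, a sum that holds opposite differences. Among them Mir139 stood at 132003 and 92535 CPM, and Mir132 at 29894 and 64859.5 CPM. The 3 microglia and leukocyte genes summed to 1585 and 1412 CPM, nearly all of it Mir150 (1531 and 1263.5 CPM), while Mir142 (48.2 and 136.8 CPM) and Mir223 (5.70 and 11.8 CPM) were higher in mouse 2. Their part in the differences of Mirlet7b and Mir98 was not tested.

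Of the 6, 4 lie within 10 kb of another microRNA gene on their strand, and such neighbours are commonly cut from a shared transcript. Mirlet7g and Mirlet7i have no such neighbour in the table. Beside Mirlet7b, at 621 bases, is Mirlet7c-2, with 2053 CPM in mouse 1, against 1194 CPM in mouse 2 and a log2 ratio of 0.89 against 0.98 for Mirlet7b. The counts of Mirlet7b were 43.7 times those of Mirlet7c-2 in mouse 1 and 41.1 times in mouse 2, so these counts kept nearly the same proportion in the 2 animals. However, the 5p and the 3p strand of Mirlet7c-2 each stand in 2 hairpins, and reads that fit several places were not counted. The 5p strand of let-7c also lies 1 base from that of let-7b. The part of let-7b reads in the counts of Mirlet7c-2 was not tested.

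Mirlet7e stands between Mir99b, 94 bases away, and Mir125a, 367 bases away, in the order shared with their paralogous clusters. Their 5p strands are shown because each was found whole in 1 annotated hairpin, whereas those of the let-7 neighbours of the other genes stand in 2. The likeness of let-7e to Mir7k and let-7a given above still holds.
miR-99b-5p: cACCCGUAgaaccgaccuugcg
let-7e-5p: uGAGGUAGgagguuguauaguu
miR-125a-5p: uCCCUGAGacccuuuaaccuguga
The 3 seeds, in capitals, differ. Mir125a had 13249 CPM in mouse 1, against 9347 CPM in mouse 2 (log2 ratio 0.61), close to the 0.46 of Mirlet7e. Mir99b had 11073 CPM in mouse 1, against 3591 CPM in mouse 2, 3.33-fold higher in mouse 1 (log2 ratio 1.73, interval 1.69 to 1.77). The counts of Mirlet7e were 2.32 times those of Mir125a in mouse 1 and 2.57 times in mouse 2, but 2.78 times those of Mir99b in mouse 1 and 6.70 times in mouse 2. The proportion of Mirlet7e to Mir99b thus differed between the animals by far more than its proportion to Mir125a.

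Mirlet7d lies 1714 bases from Mirlet7f-1 and 2064 bases from Mirlet7a-1. Mirlet7a-1 had 334 CPM in mouse 1, against 311 CPM in mouse 2 (log2 ratio 0.21, against 0.44 for Mirlet7d). Mirlet7f-1 had 179 and 269.9 CPM, with a log2 ratio of −0.48, the opposite direction to Mirlet7d. Counts of Mirlet7d were 114 times those of Mirlet7a-1 in mouse 1 and 97.9 times in mouse 2, and 212.7 and 112.7 times those of Mirlet7f-1. Both strands of Mirlet7a-1 and the 5p strand of Mirlet7f-1 stand in 2 hairpins each, and the 3p strand of Mirlet7f-1 stands in 1. The levels and ratios of these neighbours therefore leave out an unknown number of reads that mapped to several places.

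Mir98 lies 785 bases from Mirlet7f-2, in the same host gene. Mirlet7f-2 had 2627 CPM in mouse 1, against 3298.5 CPM in mouse 2 (log2 ratio −0.22, against −0.83 for Mir98). The counts of Mir98 were 0.915 times those of Mirlet7f-2 in mouse 1 and 1.40 times in mouse 2, so the order of the pair turned round. The 5p strand of let-7f stands in 2 hairpins and its 3p strands in 1 each, and the number of let-7f reads that mapped to several places is unknown.

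**Figure D5:**
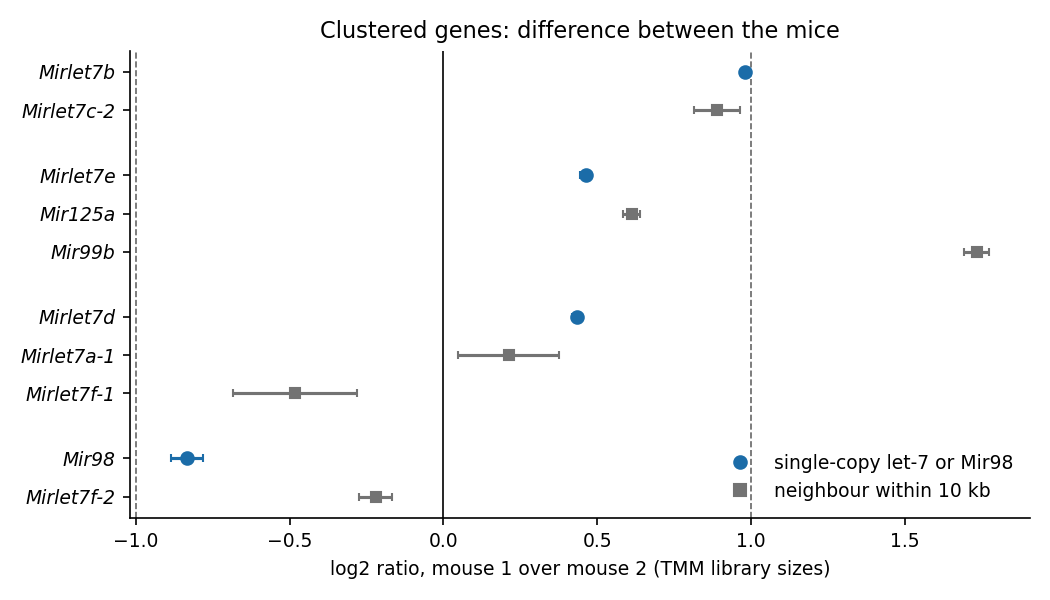
Log2 ratio of mouse 1 over mouse 2, with 95% counting intervals, for the 4 clustered genes (circles) and their same-strand neighbours within 10 kb (squares), grouped by locus. Mirlet7b and Mirlet7c-2 lie together, Mir99b at 1.73 lies apart from Mirlet7e and Mir125a, and Mirlet7f-1 lies on the other side of 0 from Mirlet7d.

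The strand of the reads bears on Mirlet7e above all. Over the 6 genes 1 read in mouse 1 and 2 reads in mouse 2 were on the opposite strand. The annotated microRNA gene Gm25927 covers the Mirlet7e hairpin on the minus strand, and the column read as unstranded, which gives reads over such pairs to neither gene, holds 0 counts for Mirlet7e in both mice, against 59351 and 44824 sense counts. Gm25927 itself had 0 sense counts, and its opposite-strand counts, 59351 in mouse 1 and 44824 in mouse 2, are those of Mirlet7e. The other 5 genes had the same count in both columns to within 1 read.

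Other genes were ranked by how near their levels lay to each of the 6, as the Euclidean distance of log2(CPM + 1) over the 2 mice. Mir369, in the imprinted cluster of chromosome 12, was nearest to Mir98 at a distance of 0.0431, with 2349 CPM in mouse 1, against 4707 CPM in mouse 2, followed by Mir342 at 0.239. Mirlet7i lay nearest to Mir744 (0.329) and Mir127 (0.351). No gene outside the 6 lay within 0.7 of Mirlet7b, Mirlet7d, Mirlet7e or Mirlet7g, whose nearest genes were Mir744 (0.722 from Mirlet7b and 0.721 from Mirlet7d), Mir23b (0.715 from Mirlet7e) and Mir127 (0.764 from Mirlet7g). With 2 samples this likeness describes levels only.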

How the data were processed

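Small RNA of the left cerebral cortex was sequenced as microRNA-seq in 2 mice, and the 2 libraries form 1 group. The deposited tables hold whole-number read counts per gene on mm10 with GENCODE M21, per the submitters' README notes. Aligner, counter, mismatch limit and trimming are not given in the sources used here. For want of names, the 3 unnamed count columns were read from their values as unstranded, sense and opposite-strand. The sense column was used. Lines naming no gene were left out: 32.1% of reads unmapped, 34.6% at several places and 6.11% in no gene in mouse 1, and 27.3%, 37.2% and 5.63% in mouse 2.

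CPM was computed over all rows that name a gene, whose 2202 IDs all matched M21. TMM factors (0.963 and 1.04) and the common coefficient of variation came from edgeR 4.0.16 in R 4.3.3 with an intercept-only design, over genes at 10 CPM or more on average. The steps were tested on simulated counts with set fold changes and sampling noise only. That setting has no spread between animals, so it says nothing of how far these mice differ. A chi-square of the 2 libraries' counts over all genes read, 244.7 per degree of freedom, exceeded sampling noise, so the tables are not copies of the same reads; n = 2 rests on the labels' replicate numbers, not on this check. Genes named were the 6, their relatives by symbol or seed, microRNA genes within 10 kb, the 2 nearest in level and the tissue markers. Alternatives were the unstranded column, other denominators, scalings and filters, a GC trend and hairpin length. The rule for the 6 genes uses symbols alone, but the genes, lists and tests were chosen with earlier results of these data known.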

Additional observations from a re-analysis of the deposited data

How the results depend on the processing

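No result of the 6 genes rests on more than 2 mice, and no paired analysis was possible because both libraries belong to 1 group. With all mapped reads as denominator, the share held by the 6 was 10.2% and the levels were 28073 (Mirlet7b), 13888 (Mirlet7d), 11101 (Mirlet7e), 29126 (Mirlet7g), 18470.5 (Mirlet7i) and 1429 CPM (Mir98). In the unstranded column Mirlet7e was at 0 CPM and at 0% of the 6, since reads over opposite-strand pairs are left out there. All the others rose. Mirlet7i was at 49190.3 CPM and 20.4%, and Mirlet7d was at 37012 CPM and 15.2%. Mirlet7b was at 74897 CPM and 30.4%, Mirlet7g at 77530 CPM and 32.3%, and Mir98 at 3800 CPM and 1.61%. A ratio of Mirlet7e could not be had in that column. Per 100 bases of hairpin, Mirlet7g stood at 81497 and Mirlet7i at 53555 CPM. The log2 ratio of Mirlet7i was −0.022 with total counts. With the GC trend removed, 1 gene was past 2-fold, Mirlet7b at 1.01, and the cause was not tested. Leaving out 1 mouse leaves the value of the other, given above for each gene, which says nothing of stability. The 54 remaining values under other settings kept their direction and side of 2-fold, or lay within 1 SD. That SD is the spread of 2 mice, 28805 CPM for Mirlet7b and 498 CPM for Mirlet7i. The limit is therefore loosest for the genes that differ most between the mice, and staying within it does not measure stability.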

Other observations

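Other annotated genes with a let-7 name or seed had few reads. Mir7j, the gene of let-7j, had 26 sense counts in mouse 1 and 28 in mouse 2, or 13.5 and 15.0 CPM. Mir7k, the gene of let-7k, had 1 count in each mouse. Mir1961, whose annotated mature strand of 17 bases carries the seed GAGGUAG, had no count in either mouse, so that its level could be as high as 1.55 CPM in mouse 1 or 1.61 CPM in mouse 2 by a floor of 3 counts each. Of the 6 multi-copy let-7 genes, Mirlet7c-1 (3.03-fold) and Mirlet7a-2 (2.16-fold) were past 2-fold, both higher in mouse 1.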
